A study of Mus musculus with 18 samples.

Results

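Mx1, Mx2, Rsad2, Bst2, Ifi27, Ifi27l2a, Ifi44, Xaf1, Rtp4 and Samhd1 are 10 antiviral genes of the interferon response, taken by name from the 55385 genes of a mouse kidney count table. All 10 had enough counts to be tested, among 17575 genes tested in all. PolyA RNA of whole kidney was sequenced in 18 mice with no treatment in the labels, 6 in each of 3 genotypes and 3 of each sex in every genotype. Dp16 2xIFNRs mice, aged 17.7 to 18.0 weeks, are labelled as having a normalized dosage of the interferon receptors. Dp16 mice were aged 17.1 to 18.0 weeks, and wild-type C57BL/6J mice, the reference for both, were aged 17.1 to 18.0 weeks. Dp16 is a mouse model of trisomy 21 that carries a duplication of the part of chromosome 16 related to human chromosome 21, so that the genes there have 3 copies in place of 2. In Dp16 2xIFNRs mice the 4 interferon receptor genes of that segment are brought back to 2 copies while the rest stays at 3. Mx1 and Mx2 lie on the segment, and the other 8 genes do not.

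Type I interferons bind a receptor made of Ifnar1 and Ifnar2 and act through Jak kinases and Stat proteins to switch on genes with interferon-response elements in their promoters. The products of these genes interfere with separate steps of virus growth, from entry and genome copying to release. In kidney, as in other tissues, many of them are transcribed at a low level without infection. Interferon activity is often read from such genes because the ligands themselves are transcribed briefly and in few cells. Here 17 of 21 interferon ligand genes had 0 counts in all 18 libraries, and Ifng, the type II interferon, had 54 counts over all of them.

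Library totals were 42157790 to 57814587 counts, with 6.34% to 10.9% from mitochondrial genes. On the log2 scale, Ifnar2 was higher than in wild-type by 0.20 ± 0.05 (SE) in Dp16 2xIFNRs kidneys and by 0.80 ± 0.05 in Dp16 kidneys. Ifngr2, a subunit of the interferon gamma receptor, differed by -0.63 ± 0.07 on the log2 scale between Dp16 2xIFNRs and Dp16 kidneys. Ifnar1, the other chain of the type I receptor, was 0.16 ± 0.08 above wild-type in Dp16 2xIFNRs kidneys (edgeR adjusted p = 0.289) and 0.58 ± 0.08 above it in Dp16 kidneys (edgeR adjusted p = 0.000185), and its difference of -0.42 ± 0.08 between Dp16 2xIFNRs and Dp16 kidneys did not pass the threshold of 0.05 (edgeR adjusted p = 0.113). Ifnar2 in Dp16 2xIFNRs kidneys was still called higher than in wild-type (edgeR adjusted p = 0.0369). Kidney tubule and podocyte markers were present in every library, at a summed level of 15715 to 19113 CPM (counts scaled to library size) in the 2 Dp16 genotypes and 16602 to 19034 CPM in wild-type. The last of the numbers in the sample descriptions takes 12 values, of which 5 are shared by animals of different genotypes. The labels do not say what it marks or whether animals were littermates.

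Sequences upstream of 5 of the 10 genes could be matched in RefSeq (GRCm38.p6) by symbol, and 4 of them are shown because their letters contain forms of the interferon-response element. Each line gives 170 bases before the annotated start and the first 20 bases from it, 5′ to 3′ on the gene's strand, with matches to GAAANNGAAA or AANNGAAA on either strand in capitals (reverse strand matches read as TTTCNNTTTC or TTTCNNTT).
Rsad2: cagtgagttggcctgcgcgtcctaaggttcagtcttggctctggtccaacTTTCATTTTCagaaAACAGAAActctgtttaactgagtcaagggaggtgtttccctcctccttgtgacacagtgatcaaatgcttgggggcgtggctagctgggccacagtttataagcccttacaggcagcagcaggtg
Bst2: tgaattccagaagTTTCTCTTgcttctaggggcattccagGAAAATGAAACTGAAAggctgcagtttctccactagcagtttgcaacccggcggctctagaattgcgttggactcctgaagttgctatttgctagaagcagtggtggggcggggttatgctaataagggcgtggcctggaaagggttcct
Ifi44: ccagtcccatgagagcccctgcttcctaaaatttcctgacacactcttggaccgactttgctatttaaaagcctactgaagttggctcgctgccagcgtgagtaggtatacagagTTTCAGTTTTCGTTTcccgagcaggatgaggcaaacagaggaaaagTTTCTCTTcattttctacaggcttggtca
Xaf1: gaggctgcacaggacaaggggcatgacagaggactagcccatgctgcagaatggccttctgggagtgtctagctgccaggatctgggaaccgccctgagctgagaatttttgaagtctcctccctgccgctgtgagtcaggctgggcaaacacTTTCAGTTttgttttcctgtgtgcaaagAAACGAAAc
The stretches lie at chr12:26456433-26456622 (minus strand), chr8:71537453-71537642 (minus), chr3:151749891-151750080 (minus) and chr11:72301459-72301648 (plus), in the order of the lines.

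In the full window of 250 bases before to 50 bases after each start, GAAANNGAAA occurred at 1 place in Rsad2 and at 2 overlapping places in Bst2. It was present in 3.44% of all 32851 RefSeq windows of this length. The shorter AANNGAAA, which overlaps the longer form, occurred at 2 places in Rsad2, 3 in Bst2, 3 in Ifi44 and 2 in Xaf1, against 23.9% of all windows with at least 1. The palindromic TTCNNNGAA, the core of a Stat dimer site, was found once in Bst2 and once in Samhd1, and in 8.30% of all windows. Samhd1 held neither form of the interferon-response element in its window. These matches describe letters and not binding, and the other 5 genes were not examined for them.

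The 10 genes spanned a wide range of levels. By RPKM, a level scaled to gene length and library size so that genes of different length can be compared, Ifi27l2a averaged 42.3 RPKM over the 18 kidneys, with a range of 15.2 to 80.1 RPKM. Ifi27 averaged 37.9 RPKM (24.0 to 54.6), Bst2 18.9 RPKM (10.7 to 28.4) and Rsad2 8.55 RPKM (5.26 to 11.8). Samhd1 averaged 5.41 RPKM (3.68 to 6.58), Ifi44 4.51 RPKM (2.90 to 6.11), Rtp4 3.29 RPKM (2.17 to 4.74) and Xaf1 1.39 RPKM (0.722 to 2.15). The Mx genes came last, with Mx2 at 0.245 RPKM (0.0631 to 0.414) and Mx1 at 0.101 RPKM (0.0207 to 0.236). Neighbours in this order overlapped in range, except that Rtp4 and Xaf1 did not overlap and neither did Xaf1 and Mx2.

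Mx1 and Mx2 encode dynamin-like GTPases that block RNA viruses such as influenza virus. In C57BL/6 and most other laboratory strains both genes carry mutations that prevent a functional protein, and the count table types both as polymorphic pseudogenes. They are neighbours near the distal end of the segment, Mx1 at chr16:97447035-97462907 (minus strand) and Mx2 at chr16:97535308-97560900 (plus strand) in GENCODE coordinates of GRCm38, 72401 bases apart. No other gene overlaps either of them.

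Mx2 was the clearest difference among the 10 genes. It had 0.683, 0.728 and 0.789 CPM (lowest, median, highest) in Dp16 2xIFNRs kidneys, 0.559, 0.743 and 0.965 CPM in Dp16 kidneys, and 0.164, 0.240 and 0.484 CPM in wild-type kidneys. Every kidney of both Dp16 genotypes was above every wild-type kidney. The log2 fold of Mx2 was 1.44 ± 0.25 (SE) in Dp16 2xIFNRs against wild-type (edgeR quasi-likelihood test with Benjamini-Hochberg adjustment over all genes, adjusted p = 0.00212), a 2.72-fold difference with a 95% interval of 1.89 to 3.91. In Dp16 against wild-type it was 1.49 ± 0.25 (edgeR adjusted p = 0.00179), a 2.81-fold difference (1.95 to 4.04). These are small numbers of molecules: Mx2 had 31 to 46 counts per library in Dp16 2xIFNRs, 29 to 47 in Dp16 and 8 to 24 in wild-type.

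Mx1 was lower and more variable. It had 0.180, 0.494 and 0.806 CPM in Dp16 2xIFNRs kidneys, 0.0821, 0.317 and 0.588 CPM in Dp16 kidneys, and 0.0741, 0.203 and 0.224 CPM in wild-type kidneys. In each Dp16 genotype 5 of 6 kidneys were above the highest wild-type kidney and 1 was within the wild-type range, with 10 counts in Dp16 2xIFNRs replicate 6 and 4 counts in Dp16 replicate 3. The log2 fold was 1.47 ± 0.44 in Dp16 2xIFNRs against wild-type (edgeR adjusted p = 0.0603) and 0.95 ± 0.45 in Dp16 against wild-type (edgeR adjusted p = 0.287), neither past the threshold of 0.05. The first of these passed without Dp16 2xIFNRs replicate 6 (log2 fold 1.64, edgeR adjusted p = 0.0446) or without Dp16 replicate 3 (1.47, edgeR adjusted p = 0.0326), and in DESeq2 (1.48, adjusted p = 0.0253).

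The Mx genes were set beside the rest of the segment, whose genes share the third copy. The segment from Lipi to Zbtb21 covers chr16:75540514-97962622, or 22.42 Mb, and holds 384 genes of the table, of which 115 were tested. Without the Mx genes and the 4 receptor genes, the median of the other 109 was 0.53 on the log2 scale (quartiles 0.40 and 0.66) in Dp16 2xIFNRs against wild-type and 0.51 (0.42 and 0.64) in Dp16 against wild-type. Copy number alone, 3 over 2, is a log2 ratio of 0.585. The 95% interval of Mx2 lay above that ratio in both comparisons, from 0.92 to 1.97 and from 0.97 to 2.01, while that of Mx1 included it, from 0.55 to 2.40 and from 0.01 to 1.88. These intervals are approximate, and no fold was tested against that ratio.

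Mx1 ranked 4 and Mx2 ranked 5 by log2 fold among the 115 genes in Dp16 2xIFNRs against wild-type, and Mx1 ranked 11 and Mx2 ranked 5 in Dp16 against wild-type. Segment genes with an average level under 1 CPM scattered widely: 22 such genes ran from -1.11 to 6.00 on the log2 scale in the first comparison and from -0.86 to 5.94 in the second, and 3 of them exceeded Mx2 in each. Among 15 tested genes of a list of Mx neighbours, 11 were higher in each wild-type comparison and none was lower, with median log2 folds of 0.51 and 0.50. The nearest tested ones were Bace2, a beta-secretase, with 1.03 ± 0.11 and 1.02 ± 0.11, and Tmprss2, a membrane serine protease, with 0.68 ± 0.05 and 0.61 ± 0.05. Igsf5 had 0.72 and 0.73, Wrb 0.58 and 0.57, Zbtb21 0.55 and 0.38, Brwd1 0.52 and 0.50, and Ripk4 0.51 and 0.46 in the same 2 comparisons. B3galt5 had 0.51 and 0.45, C2cd2 0.49 and 0.43, Psmg1 0.46 and 0.54, and Hmgn1 0.43 and 0.50. The 4 neighbours that did not pass were Sh3bgr with 0.50 and 0.66, Prdm15 with 0.46 and 0.41, Lca5l with 0.14 and -0.03, and Pcp4 with -0.44 and 0.28.

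**Figure D1:**
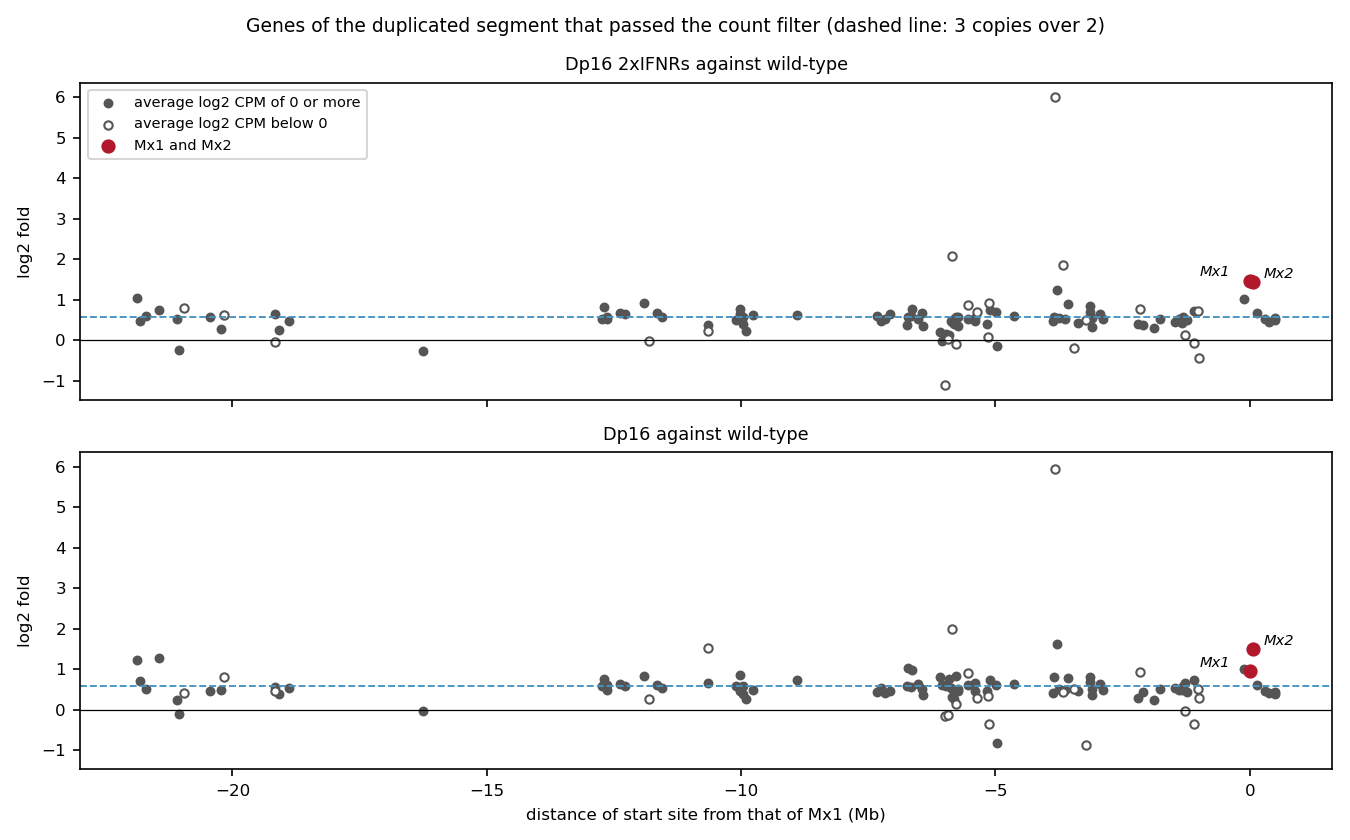
Log2 fold against wild-type (y axis) of the 115 tested genes of the duplicated segment by the distance of their start from that of Mx1 in Mb (x axis), with Dp16 2xIFNRs above and Dp16 below. Open circles are genes averaging under 1 CPM, red points are Mx1 and Mx2, and the dashed line is the log2 ratio of 3 over 2 copies, 0.585: most genes lie near the line, and Mx2 lies above it at 1.44 and 1.49.

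Of the 10 genes, Mx2 alone was called higher in Dp16 2xIFNRs against wild-type, at an edgeR adjusted p under 0.05, where 3.17% of all tested genes were called higher. In Dp16 against wild-type 5 were called higher, again beside 3.17% of all tested genes: Mx2, Bst2, Ifi27l2a, Xaf1 and Rtp4. None was called lower in either comparison. Without sex as a term Mx2 alone was called in Dp16 against wild-type, and with the 2 groups fitted alone Mx2 and Bst2 were. The ranges of the groups did not overlap for Mx2 in Dp16 2xIFNRs against wild-type, as for 1.04% of all tested genes in the higher direction, and for Mx2 and Xaf1 in Dp16 against wild-type, as for 1.06%. The median log2 fold of the 8 genes outside the segment was 0.18 in Dp16 2xIFNRs against wild-type and 0.34 in Dp16 against wild-type, while all tested genes had medians of 0.01 and -0.01. These 2 comparisons share the 6 wild-type kidneys. In bulk tissue, fewer cells of a type and less RNA per cell cannot be told apart.

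**Figure D2:**
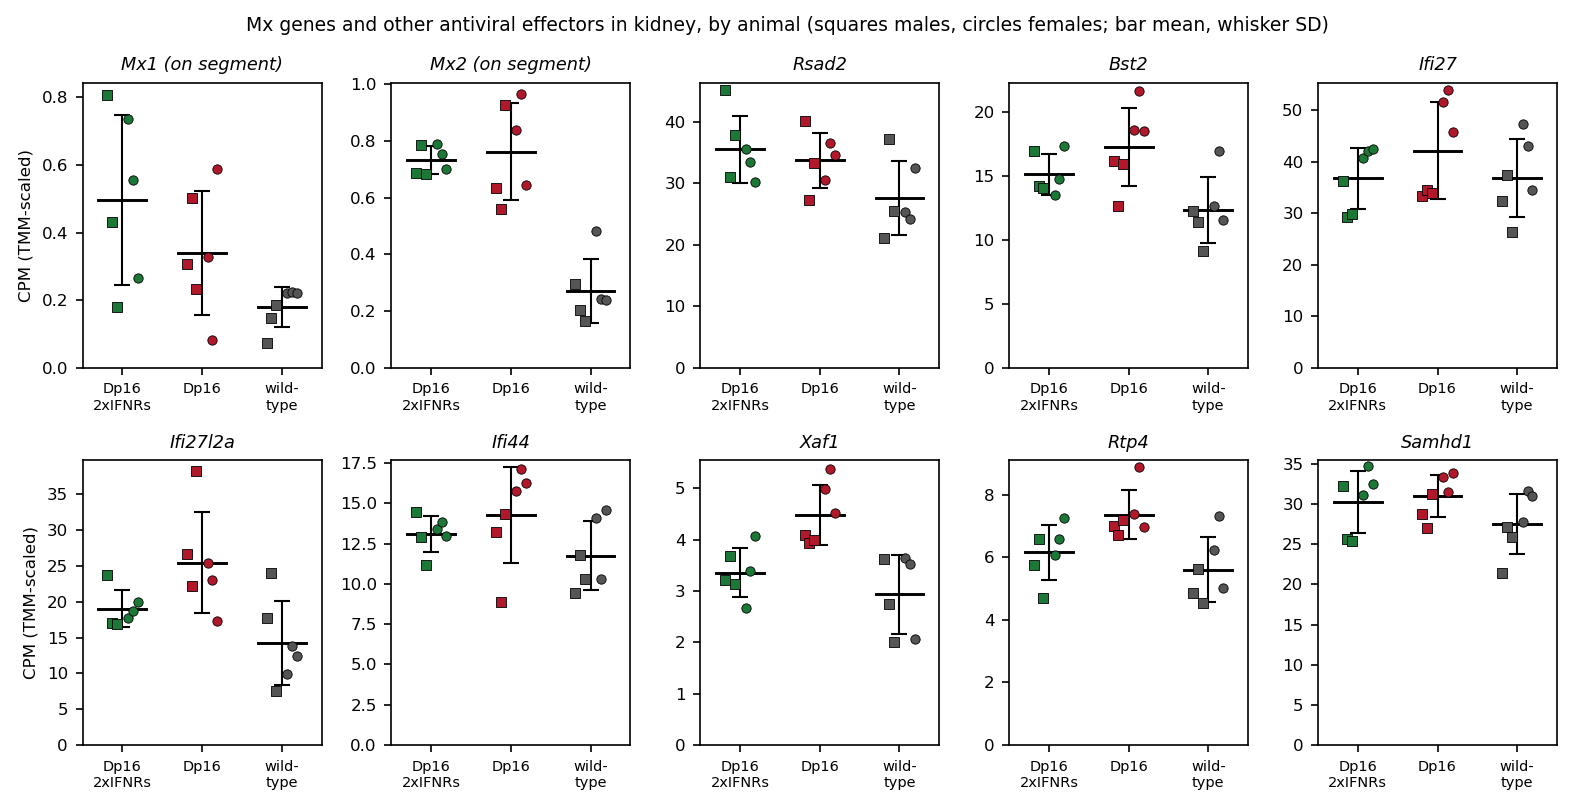
Level of each gene in CPM (y axis) in the kidneys of Dp16 2xIFNRs, Dp16 and wild-type mice, 6 per group (squares males, circles females), with the mean as a bar and the SD as a whisker. Mx2 separates both Dp16 genotypes from wild-type, Xaf1 separates Dp16 from wild-type, and Mx1 and Mx2 are the only panels with every level under 1 CPM.

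Bst2, or tetherin, acts at the last step of virus growth and holds budding virus particles at the cell surface. Bst2 had 13.5, 14.5 and 17.3 CPM (lowest, median, highest) in Dp16 2xIFNRs kidneys, 12.6, 17.3 and 21.6 CPM in Dp16 kidneys, and 9.15, 11.9 and 16.95 CPM in wild-type kidneys. All 6 Dp16 kidneys were above the wild-type median and 3 were above the highest wild-type kidney. The Bst2 log2 fold in Dp16 against wild-type was 0.48 ± 0.11 (edgeR adjusted p = 0.0190), a 1.39-fold difference (95% interval 1.18 to 1.64). Leaving out wild-type replicate 4 or Dp16 replicate 3 ended the call (0.42, edgeR adjusted p = 0.0544, and 0.42, edgeR adjusted p = 0.0628). In Dp16 2xIFNRs against wild-type it was 0.31 ± 0.11 (edgeR adjusted p = 0.136), and without wild-type replicate 5 it was 0.39 (edgeR adjusted p = 0.0385).

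Rsad2, or viperin, makes a chain-terminating nucleotide that stops viral polymerases. Rsad2 had 30.3, 34.5 and 45.1 CPM in Dp16 2xIFNRs kidneys, 27.3, 34.0 and 40.1 CPM in Dp16 kidneys, and 21.1, 25.4 and 37.2 CPM in wild-type kidneys. All 12 Dp16 and Dp16 2xIFNRs kidneys were above the wild-type median, and the ranges overlapped through 2 wild-type kidneys, replicates 3 and 6, at 37.2 and 32.4 CPM. The log2 fold was 0.36 ± 0.13 in Dp16 2xIFNRs (edgeR adjusted p = 0.120) and 0.29 ± 0.13 in Dp16 (edgeR adjusted p = 0.240) against wild-type. Without wild-type replicate 3 the first became 0.46 (edgeR adjusted p = 0.0419).

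Ifi27 and Ifi27l2a encode small hydrophobic proteins, of mitochondria and the nuclear envelope, that are among the strongest interferon-induced transcripts. They lie 1928 bases apart on chromosome 12, and how the counting split reads between such related genes is not given in the sources used here. Ifi27l2a had 16.9, 18.2 and 23.8 CPM in Dp16 2xIFNRs kidneys, 17.3, 24.2 and 38.2 CPM in Dp16 kidneys, and 7.56, 13.1 and 24.1 CPM in wild-type kidneys. Its highest value was 1 Dp16 male, replicate 6, and its lowest was 1 wild-type male, replicate 4. The Ifi27l2a log2 fold in Dp16 against wild-type was 0.84 ± 0.20 (edgeR adjusted p = 0.0218), a 1.79-fold difference (95% interval 1.33 to 2.39), and all 6 Dp16 kidneys were above the wild-type median. It was 0.72 without Dp16 replicate 6 (edgeR adjusted p = 0.0604) and 0.77 without wild-type replicate 2 (edgeR adjusted p = 0.0535). In Dp16 2xIFNRs against wild-type the log2 fold was 0.44 ± 0.20 (edgeR adjusted p = 0.255).

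Ifi27 had 29.3, 38.4 and 42.3 CPM in Dp16 2xIFNRs kidneys, 33.3, 40.1 and 53.9 CPM in Dp16 kidneys, and 26.4, 35.9 and 47.2 CPM in wild-type kidneys. The 3 ranges overlapped broadly. Its log2 fold against wild-type was -0.004 ± 0.088 in Dp16 2xIFNRs and 0.18 ± 0.09 in Dp16 (edgeR adjusted p = 0.985 and 0.304).

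Xaf1 is a pro-apoptotic partner of the inhibitor of apoptosis Xiap. Xaf1 had 2.68, 3.29 and 4.07 CPM in Dp16 2xIFNRs kidneys, 3.93, 4.30 and 5.38 CPM in Dp16 kidneys, and 2.01, 3.13 and 3.65 CPM in wild-type kidneys. Every Dp16 kidney was above every wild-type kidney, while Dp16 2xIFNRs kidneys overlapped with both other groups. The Xaf1 log2 fold was 0.60 ± 0.16 in Dp16 against wild-type (edgeR adjusted p = 0.0320), a 1.52-fold difference (95% interval 1.21 to 1.91), and 0.19 ± 0.16 in Dp16 2xIFNRs against wild-type (edgeR adjusted p = 0.557). The Dp16 call was lost without any 1 of wild-type replicates 3, 4 and 6 or Dp16 replicates 1, 2 and 3, at edgeR adjusted p-values of 0.0510 to 0.0896 and log2 folds of 0.50 to 0.62.

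Rtp4 was named as a receptor transporter protein that helps G protein-coupled receptors reach the cell surface, and it also restricts viruses. Rtp4 had 4.71, 6.33 and 7.26 CPM in Dp16 2xIFNRs kidneys, 6.72, 7.10 and 8.89 CPM in Dp16 kidneys, and 4.54, 5.33 and 7.33 CPM in wild-type kidneys. All 6 Dp16 kidneys were above the wild-type median, with 1 wild-type kidney, replicate 5, inside the Dp16 range. The Rtp4 log2 fold was 0.40 ± 0.11 in Dp16 against wild-type (edgeR adjusted p = 0.0390), a 1.32-fold difference (95% interval 1.13 to 1.54), and 0.14 ± 0.11 in Dp16 2xIFNRs against wild-type (edgeR adjusted p = 0.537). It was the least stable of the 5 calls, lost without any 1 of wild-type replicates 1, 2, 4 and 6 or Dp16 replicates 1, 3, 5 and 6 at edgeR adjusted p-values of 0.0597 to 0.108 and log2 folds of 0.35 to 0.41. With no filter on low counts it was lost as well (0.39, edgeR adjusted p = 0.0666). Rtp4 is also on chromosome 16, but 51926 kb before the segment starts, and its annotated span overlaps exons of Gm45338 on the same strand.

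Ifi44 and Samhd1 act inside infected cells. Ifi44 is a cytoplasmic interferon-induced protein that slows cell growth. Ifi44 had 11.2, 13.2 and 14.5 CPM in Dp16 2xIFNRs kidneys, 8.86, 15.04 and 17.1 CPM in Dp16 kidneys, and 9.43, 11.04 and 14.6 CPM in wild-type kidneys. Its log2 fold against wild-type was 0.17 ± 0.12 in Dp16 2xIFNRs and 0.27 ± 0.12 in Dp16 (edgeR adjusted p = 0.484 and 0.218). Without Dp16 replicate 5, the lowest kidney of all, the Dp16 fold became 0.36 (edgeR adjusted p = 0.0474).

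Samhd1 hydrolyses the nucleotides that retroviruses and DNA viruses need for copying their genomes. Samhd1 had 25.4, 31.7 and 34.8 CPM in Dp16 2xIFNRs kidneys, 27.1, 31.4 and 33.8 CPM in Dp16 kidneys, and 21.4, 27.4 and 31.7 CPM in wild-type kidneys. Its log2 fold against wild-type was 0.14 ± 0.07 in Dp16 2xIFNRs and 0.18 ± 0.07 in Dp16 (edgeR adjusted p = 0.311 and 0.200), the smallest Dp16 fold of the 10 genes.

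**Figure D3:**
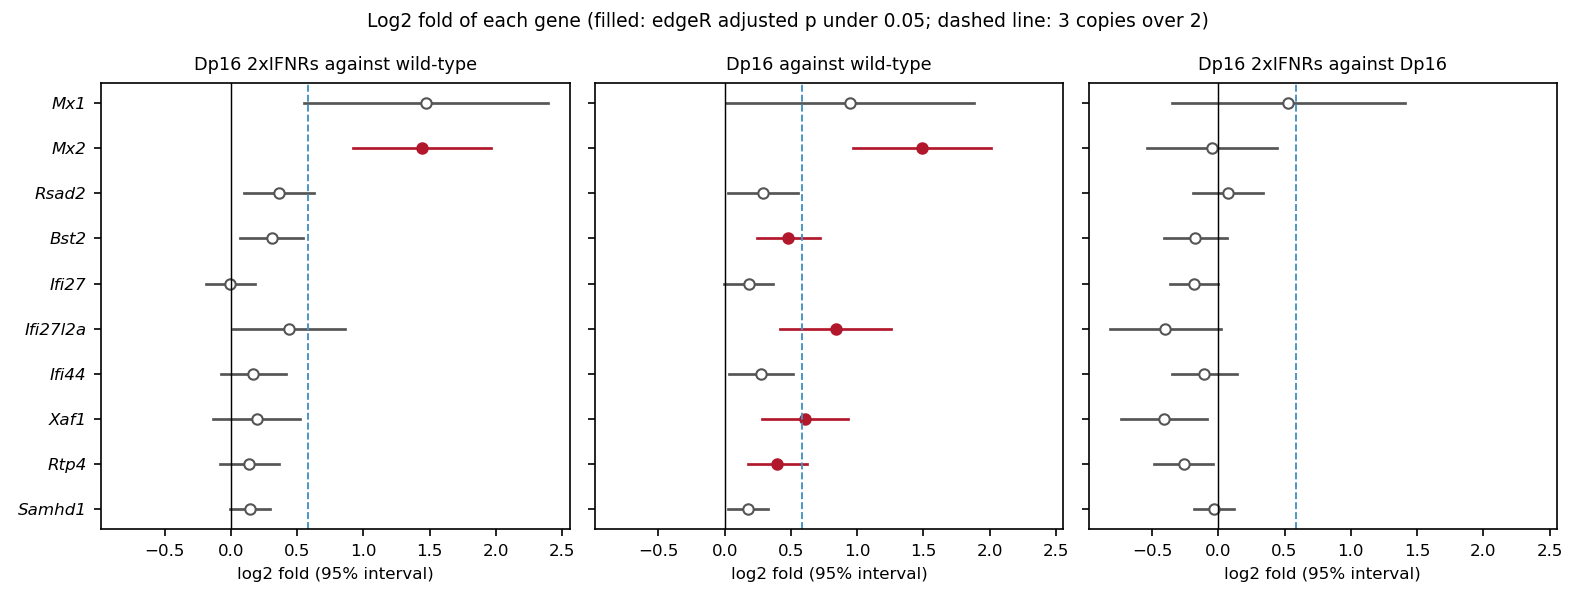
Log2 fold with its 95% interval (x axis) of each gene (y axis) in Dp16 2xIFNRs against wild-type, Dp16 against wild-type and Dp16 2xIFNRs against Dp16, with filled points where the edgeR adjusted p was under 0.05 and a dashed line at the log2 ratio of 3 over 2 copies, 0.585. There is 1 filled point in the first panel, Mx2, there are 5 in the second, and there is none in the third, where the intervals of Ifi27, Xaf1 and Rtp4 lie below 0.

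The difference between the Dp16 genotypes, which share the third copy of Mx1 and Mx2 but not that of the receptors, was tested directly. None of the 10 genes was called in Dp16 2xIFNRs against Dp16 by edgeR, where 0.0171% of all tested genes, or 3 genes, were called in either direction, and none was called by DESeq2. At an unadjusted p under 0.05 there were 3 of the 10 genes and 827 of all 17575. No pair of ranges was free of overlap among the 10, beside 0.0797% of all tested genes. Of the 10 log2 folds 8 were below 0, with a median of -0.14, and all tested genes had a median of 0.003.

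The log2 fold of Xaf1 was furthest below 0, at -0.41 ± 0.16 on the log2 scale with a 95% interval of -0.73 to -0.09 (unadjusted p = 0.0155, edgeR adjusted p = 0.850). All 6 Dp16 2xIFNRs kidneys were below the Dp16 median of Xaf1. The same held for Ifi27l2a, at -0.40 ± 0.20 (-0.82 to 0.02), and for Ifi44, at -0.11 ± 0.12 (-0.35 to 0.14). The share of all tested genes with this pattern was not counted. The 6 Dp16 kidneys are the same as in Dp16 against wild-type, so these comparisons are not independent. Rtp4 had -0.26 ± 0.11 (-0.48 to -0.04), Ifi27 -0.18 ± 0.09 (-0.367 to -0.001) and Bst2 -0.17 ± 0.11 (-0.41 to 0.06). Mx2 had -0.05 ± 0.24 (-0.54 to 0.44) and Mx1 0.53 ± 0.42 (-0.35 to 1.41), the widest interval of the 10. Rsad2 had 0.07 ± 0.13 (-0.19 to 0.34) and Samhd1 -0.03 ± 0.07 (-0.18 to 0.12). The intervals leave room for moderate differences in most of these genes.

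Sex was balanced in each genotype and was not used to choose the genes. In males against females 5 of the 10 genes were called lower, Ifi27, Samhd1, Ifi44, Bst2 and Rtp4, where 19.7% of all tested genes were called lower. None was called higher in males, where 19% of all tested genes were. Most endothelial and kidney markers were lower in males too. Of 16 endothelial markers 12 were lower and none higher, with a median log2 fold of -0.25 and summed levels of 805 to 1131 CPM in males and 1064 to 1328 CPM in females. Of 15 kidney tubule and podocyte markers 10 were lower and 2 higher, with a median of -0.28 and summed levels of 17045 to 19034 CPM in males and 15715 to 19113 CPM in females. Of 7 plasmacytoid dendritic cell markers 3 were lower, Klk1, Tcf4 and Ly6d. Another 2 of the 7 had log2 folds above 0, Siglech among them (0.54 ± 0.27, edgeR adjusted p = 0.120). Klk1, Tcf4 and Ly6d averaged 2143, 44.3 and 4.28 CPM over all kidneys, and Siglech 0.402 CPM. Which cells these counts come from was not tested. Of 25 macrophage and dendritic cell markers 2 were lower and 1 higher, of 27 lymphocyte markers 1 was lower and 2 higher, and of 4 neutrophil markers none was called. The part of all these cells in the sex differences of the antiviral genes was not tested. Ifi27 had 26.4, 33.3 and 37.4 CPM in males and 34.5, 43.0 and 53.9 CPM in females (lowest, median, highest, n = 9 each), and all 9 males were below the female median. Its log2 fold was -0.45 ± 0.07 in males against females (edgeR adjusted p = 5.12e-05). Samhd1 had 21.4, 27.1 and 32.2 CPM in males and 27.7, 31.7 and 34.8 CPM in females, and 8 of 9 males were below the female median. In males its log2 fold was -0.23 ± 0.06 against females (edgeR adjusted p = 0.00357). Both kept their call with any 1 kidney left out.

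The other 3 sex differences were closer to the threshold. Bst2 had a log2 fold of -0.24 ± 0.09 in males against females (edgeR adjusted p = 0.0416), Rtp4 -0.23 ± 0.09 (edgeR adjusted p = 0.0434) and Ifi44 -0.27 ± 0.10 (edgeR adjusted p = 0.0315). Bst2 kept its call without any 1 of wild-type replicates 1, 2 and 6 or Dp16 2xIFNRs replicates 1, 2 and 4, and lost it without any 1 of the other 12 kidneys, at edgeR adjusted p-values up to 0.101. Rtp4 kept it without wild-type replicates 3 and 6, Dp16 2xIFNRs replicates 2 and 3 or Dp16 replicates 2, 4 and 6, left out 1 at a time, and lost it without any 1 of the other 11, at up to 0.0986. Ifi44 lost it without any 1 of wild-type replicates 1, 2, 4 and 6, Dp16 2xIFNRs replicate 6 and Dp16 replicates 3, 4 and 5, at up to 0.0688. With RLE in place of TMM scaling the calls of Bst2 and Rtp4 were also lost (edgeR adjusted p = 0.0501 and 0.0533). The Rtp4 call was lost too with no filter on low counts (edgeR adjusted p = 0.113), with the replicate block (edgeR adjusted p = 0.0680) and with the shared description number as a random block (limma adjusted p = 0.0576).

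No interaction of sex and genotype was called for any of the 10 genes in any comparison by edgeR, nor at an unadjusted p under 0.05. All tested genes gave calls at 0.00569% for Dp16 2xIFNRs against wild-type, 0.0171% for Dp16 against wild-type and 0% for Dp16 2xIFNRs against Dp16. The intervals were wide, as for Mx2 in Dp16 against wild-type, where the log2 fold in males minus that in females was 0.31 with an interval of -0.77 to 1.39. Ifi27 was lower in males than in females in all 3 genotypes, with means of 31.8 and 41.7 CPM in Dp16 2xIFNRs, 33.9 and 50.4 CPM in Dp16, and 32.1 and 41.6 CPM in wild-type (n = 3 each).

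**Figure D4:**
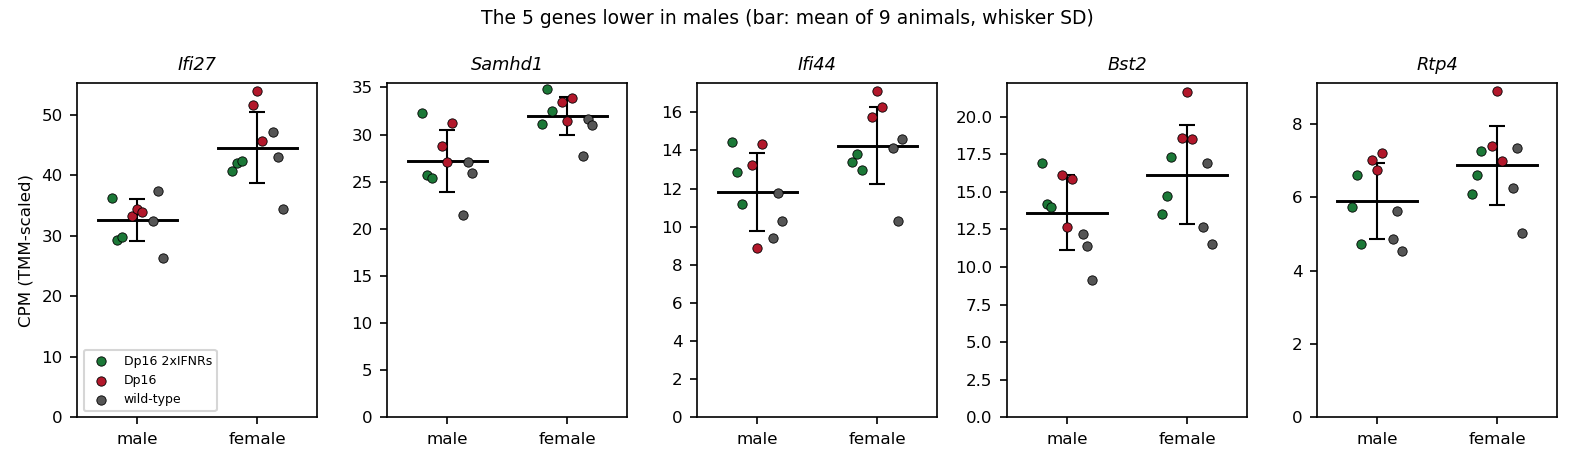
Level in CPM (y axis) of the 5 genes called lower in males, in 9 males and 9 females (x axis) colored by genotype, with the mean as a bar and the SD as a whisker. For Ifi27 all 9 males lie at or below 37.4 CPM and 8 of 9 females lie above 40 CPM, while the sexes overlap more in the other 4 genes.

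After genotype and sex were removed from log2 CPM, the 8 genes outside the segment varied together only in part across the 18 kidneys. Their 28 pairs had a median Pearson r of 0.29, with a range of -0.38 to 0.69 and 23 pairs above 0. All pairs come from the same libraries and so share their depth and scaling, and these values are descriptions. Bst2, Xaf1, Ifi27 and Rtp4 formed 1 group, with r from 0.49 to 0.69 among its 6 pairs. Rsad2 went with Ifi44 (0.67) and with Samhd1 (0.55), but against Xaf1 (-0.38). The Mx genes had a median r of 0.03 over 16 pairs with the other 8, and -0.33 with each other, at counts of 4 to 47 per library.

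**Figure D5:**
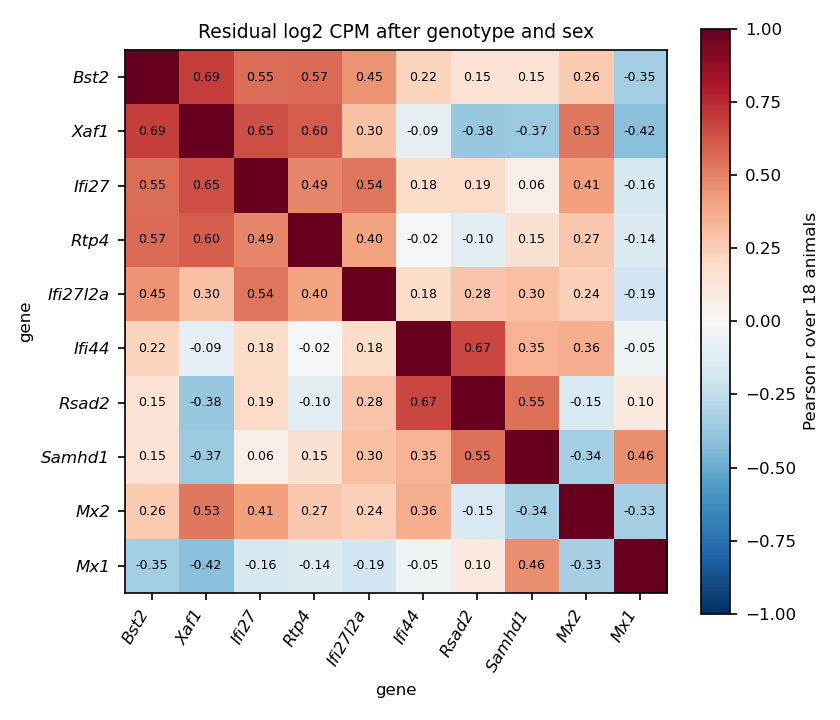
Pearson r between genes (both axes) of log2 CPM across 18 kidneys after genotype and sex were removed, red above 0 and blue below. A block of Bst2, Xaf1, Ifi27 and Rtp4 has r of 0.49 or more, Rsad2 and Ifi44 have 0.67, and Mx1 is below 0 with 7 of the 9 other genes.

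The 5 genes whose residual levels were most like the mean of the 8 genes outside the segment were Arhgap9 (r = 0.86), Alox5ap (0.85), Phf11b (0.83), Gabrp (0.82) and H2-DMa (0.81), over 18 kidneys. Of these, Alox5ap and H2-DMa were also higher in Dp16 against wild-type, with log2 folds of 0.59 (edgeR adjusted p = 0.0100) and 0.44 (edgeR adjusted p = 0.0247).

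A list of 59 other interferon-induced antiviral genes, of which 58 were tested, gives the setting. In Dp16 2xIFNRs against wild-type 5 (8.62%) were higher, beside 3.17% of all tested genes, and none lower, with a median log2 fold of 0.22. In Dp16 against wild-type 11 (19%) were higher, again beside 3.17% of all tested genes, and none lower, with a median of 0.27. None was called in Dp16 2xIFNRs against Dp16, where the median was -0.002 and 0.0171% of all tested genes were called. With 1 library left out the first count ran from 2 (without wild-type replicate 1 or Dp16 2xIFNRs replicate 5) to 10 (without wild-type replicate 5) and the second from 4 (without Dp16 replicate 1) to 15 (without wild-type replicate 5). Lgals3bp, a secreted galectin-binding glycoprotein, had 0.59 ± 0.10 in Dp16 2xIFNRs and 0.61 ± 0.10 in Dp16 against wild-type. Uba7, the enzyme that activates the ubiquitin-like protein Isg15, had 0.51 ± 0.11 and 0.64 ± 0.11. Slfn5, a Schlafen family member, had 0.31 ± 0.08 in each and was called in both. Ifi207, of the nucleic acid-sensing AIM2-like family, had 0.51 ± 0.15 in Dp16 2xIFNRs (edgeR adjusted p = 0.0589) and 0.74 ± 0.15 in Dp16, called in Dp16 alone. The remaining genes called in Dp16 2xIFNRs, named after their values were seen, were Ifit2, an inhibitor of viral translation, with 0.34 ± 0.10, and Trim30a, with 0.44 ± 0.11. In Dp16, Trim30a was called too, with 0.40 ± 0.11, and Ifit2 had 0.34 ± 0.10 without a call (edgeR adjusted p = 0.0506). By sex, 26 of the 58 were lower and 3 higher in males, beside 19.7% and 19% of all tested genes.

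Of 19 tested genes of interferon signalling, 2 were higher in Dp16 2xIFNRs against wild-type, Ifnar2 and Irf7, beside 3.17% of all tested genes. In Dp16 against wild-type 5 were higher, again beside 3.17%. They were Ifnar2 (0.80 ± 0.05), Ifngr2 (0.76 ± 0.07), Il10rb (0.60 ± 0.07), Irf7 and, named after its value was seen, Ifnar1. All but Irf7 are the receptor genes of the segment, whose copy number differs between the genotypes by design. Irf7, the transcription factor that amplifies interferon responses, had 0.40 ± 0.11 in Dp16 2xIFNRs and 0.55 ± 0.11 in Dp16 against wild-type. Ifnar2, Ifngr2 and Il10rb were the 3 genes of this list called lower in Dp16 2xIFNRs against Dp16. Of all tested genes 0.0171% were called there in either direction, and these 3 are receptor genes brought back to 2 copies.

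Of the lists of immune cell markers, that of macrophages and dendritic cells had most of its genes called higher against wild-type, where 3.17% of all tested genes were called higher in each comparison. Of 25 macrophage and dendritic cell markers, 18 were higher and none lower in Dp16 2xIFNRs against wild-type, and 14 were higher and 1 lower in Dp16 against wild-type, with summed levels of 417 to 528 CPM, 429 to 514 CPM and 275 to 398 CPM in Dp16 2xIFNRs, Dp16 and wild-type kidneys. Lyz2, the lysozyme of macrophages, had log2 folds of 1.02 ± 0.13 and 1.11 ± 0.13. Of 27 tested lymphocyte markers 5 and 8 were higher and none lower, with summed levels of 182 to 570, 245 to 802 and 105 to 178 CPM. The 5 were Ptprc, Cd4, Igkc and, named after their values were seen, Trac and Cd52. Siglech, a lectin of plasmacytoid dendritic cells, which also display Bst2, had 2.14 ± 0.35 and 2.18 ± 0.35, as the 1 gene called of 7 tested plasmacytoid markers. Neutrophil markers summed to 1.57 to 4.03, 2.1 to 4.92 and 1.03 to 4.64 CPM, with 1 of 4 tested genes, Csf3r, higher in each comparison. Endothelial markers gave 1 higher gene of 16, Erg, which lies on the segment, in Dp16 2xIFNRs and 0 in Dp16, and kidney markers gave 2 of 15 in each, Calb1 among them. The part of these cells in the levels of the 10 antiviral genes was not tested. None of these lists of cell markers had a call in Dp16 2xIFNRs against Dp16.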

How the data were processed

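Per the labels, TRIzol RNA was enriched for polyA, made into strand-specific libraries and read as paired ends on a NovaSeq instrument. The submitters' processing notes name HISAT2 2.1.0, HTSeq 0.6.1, SAMtools 1.5 and FastQC 0.11.5 beside bcl2fastq, and GRCm38 as the build. Whether HTSeq counted by strand is not given in the sources used here. The authors deposited raw counts per gene, which were tested, and RPKM values, used for levels between genes. Counts divided by RPKM gave 1 gene length in all samples within 0.1% for 13828 of 13828 genes checked. The most alike 2 of the 18 libraries still differed by far more than sampling noise (chi-square of 19.4 for each degree of freedom).

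The edgeR 4.0.16 quasi-likelihood test (R 4.3.3) was fitted to all 18 libraries with genotype and sex as terms, TMM scaling and a filter (at least 10 counts at the median library size in as many libraries as the smallest group, total of at least 15). All p-values are two-sided, with Benjamini-Hochberg adjustment over 17575 genes and a threshold of 0.05. A fold is given with its SE and a 95% interval. The SE was computed from the log2 fold and the F statistic of its test against no difference. The interval is symmetric on the log2 scale and approximate at low counts. CPM values used TMM-scaled totals, and residuals used log2 CPM with a prior count of 2. The script was tested on simulated data. Alternatives were DESeq2 1.42.0, limma 3.58.1, RLE scaling, other filters, covariates and blocks, RPKM on a log2 scale with pseudocounts of 0.1 and 1, and leaving out each library. The labels number the 6 samples of a group and give each a sex and an age, and p-values measure the spread between these samples.

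The genes named are the 10 antiviral genes, up to 3 called genes of smallest p per list and comparison, all tested Mx neighbours and the 5 genes whose residuals were most like those of the 8 antiviral genes outside the segment. The genes and the lists were chosen with earlier results of these data known. Replicate numbers were not used as pairs in the main fit. Residuals of 18 same-numbered pairs had r of -0.17 to 0.20, with 7 over 0.1. Pairs with different numbers were not compared, so these values cannot decide whether the numbers pair animals. Positions are from GENCODE M21, an earlier release than the one named for the deposited counts. Of the 55385 genes counted, 55144 were found in it. Some called cell markers are counted but not reported here by name.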

Additional observations from a re-analysis of the deposited data

Results flagged for a closer look

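Among 30 sets of 6 kidneys (10 genes in 3 genotypes), 1 kidney stood apart from its group by Dixon's test. Rtp4 in Dp16 replicate 3, a female, was at 8.89 CPM, the next highest Dp16 kidney was at 7.40 CPM, and the gap was 0.69 of the range of the group, above the critical value of 0.625. Chance alone gives such a kidney in about 1 of 20 groups. Without it the Rtp4 log2 fold in Dp16 against wild-type was 0.36 (edgeR adjusted p = 0.108).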

How the results depend on the processing

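Over the alternatives, 1132 folds of the 10 genes were recomputed: 1062 stayed on their side of the threshold, 62 lost a call, 8 gained one and 0 reversed. Most of these folds had no call in the main fit and so none to lose. Rtp4 lost its call in 11 of 29 alternatives in Dp16 against wild-type and in 15 of 27 by sex. Bst2 lost its call in 3 of 29 and 13 of 27, while Ifi27 by sex kept its call in all 27. Mx2 kept its call against wild-type in all 28 alternatives that tested it in both comparisons. Its log2 fold ran from 0.23 to 1.65 in Dp16 2xIFNRs and from 0.24 to 1.70 in Dp16. With 1 library left out the lowest were 1.33 and 1.39. The alternatives include RPKM with a pseudocount of 1, above the mean Mx2 level of 0.245 RPKM. Requiring an average log2 CPM of 1 removed both Mx genes. Of the 10 genes, 1 was called in Dp16 2xIFNRs against wild-type: 0 with that filter, 2 with DESeq2, 2 with the 2 groups alone, and 1 to 2 with 1 library left out. In Dp16 against wild-type 5 were called: 1 without sex as a term, 2 with the 2 groups alone, and 2 to 5 with 1 library left out. By sex 5 were called: 3 with RLE scaling and 2 to 5 with 1 library left out. Of the other antiviral genes, the 5 called in Dp16 2xIFNRs against wild-type became 2 without sex, 8 with the replicate block, 3 with the 2 groups alone and 2 to 10 with 1 library left out. The 11 in Dp16 against wild-type became 3 without sex, 18 with DESeq2, 3 with the 2 groups alone and 4 to 15 with 1 library left out. The replicate block with sex ended 1 call, that of Rtp4 by sex (log2 fold -0.26, edgeR adjusted p = 0.0680). Over all genes the calls ran from 234 to 1287 (841 as reported) and from 190 to 1236 (744) against wild-type, and from 2 to 4 (3) between the Dp16 genotypes. The cause of these differences was not tested. Counts of 4 to 47 per library limit the Mx genes.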
